A study of Mus musculus with 12 samples.

Results

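The 780 genomic regions described here carried at least 2 times less ESRRB signal with Nanog than without it in mouse embryonic stem cells. They were chosen from the 86201 regions of a chromatin immunoprecipitation sequencing (ChIP-seq) count table by a rule on the measured counts. Each library was scaled by its column total to CPM, a region's reads relative to all reads of that library in regions. A region was taken when its mean without Nanog was at least 8 CPM and at least 2 times its mean with Nanog, and when each library without Nanog lay above each library with Nanog. The region also had to overlap a peak of both deposited peak lists by at least 1 bp, and the mitochondrial chromosome was left out. Of 32615 regions in both lists, 29548 reached 8 CPM without Nanog, and the 780 are 2.64% of these. Because the rule used the levels of both lines, the levels and their differences are given as a description and no test is attached to them.

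The study set NanogKO:Esrrb:Nanog cells (44JN, "with Nanog") against NanogKO:Esrrb cells (44J, "without Nanog"), with 3 ESRRB ChIP libraries of each. Both lines are labelled as Nanog knockouts with Esrrb and share the cell-line label N{delta}:cE:iN, and both grew untreated in serum medium with leukaemia inhibitory factor (LIF). How Nanog was supplied to the 44JN line is not stated in these sources, nor is which libraries had formaldehyde alone or formaldehyde followed by di(N-succinimidyl) glutarate as fixative. Each arm is a single line, and the labels do not say that its libraries came from separate cultures, so the spread between libraries may be technical. ChIP counts do not measure expression, so neither the Nanog label nor the cell type was checked against transcripts.

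ESRRB is an orphan nuclear receptor that binds DNA as a monomer at an AGGTCA hexamer extended on its 5′ side, and it sustains self-renewal of embryonic stem cells. NANOG is a homeodomain factor of the same network, which activates Esrrb and binds with ESRRB at many enhancers. ESRRB is known to be able to stand in for NANOG in keeping these cells undifferentiated, which is the background for comparing its sites in cells with and without Nanog.

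Few of the decreased regions lay at promoters, and those that did are shown first because they are the ones whose sequence can be read. The windows are RefSeq promoters of GRCm38.p6 (the mm10 assembly), from 250 bases before to 50 after an annotated start, 300 bases in all. Of the 780 regions, 15 overlapped a window, and these 15 overlapped 19 windows of 16 genes. The core ESRRB motif AAGGTCA was searched on both strands. It lies within the extended motif TCAAGGTCA and contains the shorter AGGTCA, so each hit to a longer motif is also a hit to the shorter. The core was in 3 of the 19 windows (15.8%), in 9.08% of the 3425 windows overlapped by a region at 8 CPM or more without Nanog, and in 4.72% of all 32851 windows. The part of each of these 3 windows that lies inside the decreased region is given on the gene's strand, with the core or its reverse complement in capitals.
Tbc1d14, chr5:36582348-36582647, minus strand: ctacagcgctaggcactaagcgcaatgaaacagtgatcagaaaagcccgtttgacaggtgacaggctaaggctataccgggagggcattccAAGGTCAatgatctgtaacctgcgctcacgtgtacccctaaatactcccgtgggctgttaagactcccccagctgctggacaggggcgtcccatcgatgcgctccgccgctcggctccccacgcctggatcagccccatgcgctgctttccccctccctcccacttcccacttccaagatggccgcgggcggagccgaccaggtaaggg
1810064F22Rik, chr9:22213934-22214110, minus strand: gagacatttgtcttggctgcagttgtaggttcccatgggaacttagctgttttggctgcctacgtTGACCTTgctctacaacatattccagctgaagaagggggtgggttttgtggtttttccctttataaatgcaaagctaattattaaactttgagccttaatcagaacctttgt
Gm52501, chr2:21228481-21228777, plus strand: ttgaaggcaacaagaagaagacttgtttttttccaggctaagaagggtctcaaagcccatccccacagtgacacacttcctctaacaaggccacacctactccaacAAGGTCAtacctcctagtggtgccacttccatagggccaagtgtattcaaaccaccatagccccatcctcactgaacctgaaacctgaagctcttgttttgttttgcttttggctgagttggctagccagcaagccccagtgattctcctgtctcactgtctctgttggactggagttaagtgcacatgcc

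Tbc1d14, a protein-coding gene whose product regulates autophagy and membrane traffic, had a mean of 8.86 CPM with Nanog against 19.2 CPM without Nanog at its start. 1810064F22Rik, a long non-coding RNA gene near the KRAB zinc-finger gene Zfp809, had 3.23 CPM with Nanog against 15.5 CPM without Nanog. Gm52501, another long non-coding RNA gene, had 7.13 CPM with Nanog against 14.3 CPM without Nanog. The rule sets the size of these differences, so no level is compared between windows with and without the core. The next 3 sequences are examples of windows without it, picked after their values were seen, and nothing in them is in capitals.
Thap4, chr1:93731877-93732094, minus strand: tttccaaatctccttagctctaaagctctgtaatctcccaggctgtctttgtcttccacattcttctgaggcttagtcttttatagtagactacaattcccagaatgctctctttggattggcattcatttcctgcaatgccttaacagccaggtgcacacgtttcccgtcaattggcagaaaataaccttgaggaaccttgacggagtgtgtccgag
Btbd17, chr11:114795938-114796142, minus strand: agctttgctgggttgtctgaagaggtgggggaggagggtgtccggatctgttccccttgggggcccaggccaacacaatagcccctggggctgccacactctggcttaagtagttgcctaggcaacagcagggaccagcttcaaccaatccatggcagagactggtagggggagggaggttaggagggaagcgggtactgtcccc
Gm29943, chr2:180290445-180290619, plus strand: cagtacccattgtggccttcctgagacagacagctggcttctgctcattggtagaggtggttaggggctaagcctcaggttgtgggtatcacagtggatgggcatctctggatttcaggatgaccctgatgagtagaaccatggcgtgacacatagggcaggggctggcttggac

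Thap4 had 11.9 CPM with Nanog against 32.2 CPM without Nanog, Btbd17 had 8.17 CPM with Nanog against 21.1 CPM without Nanog, and the region at Gm29943 had 9.18 CPM with Nanog against 38.6 CPM without Nanog. The extended motif TCAAGGTCA was in 0 of the 19 windows, in 1.08% of those at regions of 8 CPM or more and in 0.423% of all. AGGTCA was in 5 of 19 (26.3%), 22.7% and 16.3%, and the octamer ATGCAAAT bound by POU factors in 0 of 19, 1.58% and 1.74%. Only the 300-base windows were searched, for these 4 motifs, and windows of genes on chromosome 18 were not used. A match is a run of letters and not a measured site, and the rest of each region was not searched.

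Across all 780 regions the mean signal ranged from 2.63 to 111 CPM with Nanog, with a median of 6.40, and from 8.02 to 227 CPM without Nanog, with a median of 14.6. The ratio of the mean with Nanog over the mean without Nanog had a median of 0.446 and quartiles of 0.403 and 0.479, so most regions sat close to the limit of the rule. It was under 1/3 at 58 regions and under 1/4 at 10, with 0.149 the lowest. Most of the separation between the lines was modest too. The lowest library without Nanog was at least 1.5 times the highest with Nanog at 534 regions (68.5%), and at least 2 times at 94 (12.1%).

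By library, the 780 regions had median signals of 6.43, 5.85 and 6.89 CPM in libraries A, B and C with Nanog, against 15.0, 14.4 and 15.0 CPM in libraries A, B and C without Nanog. They held 0.662%, 0.577% and 0.681% of all reads in regions with Nanog, against 1.54%, 1.39% and 1.57% without Nanog. All 3 libraries of each line thus lay close together in the median. The 28768 other regions in both lists at 8 CPM or more without Nanog had medians of 16.6 to 16.8 CPM with Nanog and of 16.8 to 17.2 CPM without Nanog. Library totals were 6689166 to 8382646 reads in regions with Nanog and 2734338 to 5193707 without Nanog, so a level of 8 CPM without Nanog stands for 21.9 to 41.5 reads. In an edgeR quasi-likelihood fit over all regions, 9.78% of the 84892 tested were called lower with Nanog (Benjamini-Hochberg adjusted p under 0.05). All 780 chosen regions were tested and called lower, which the rule itself brings about.

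**Figure D1:**
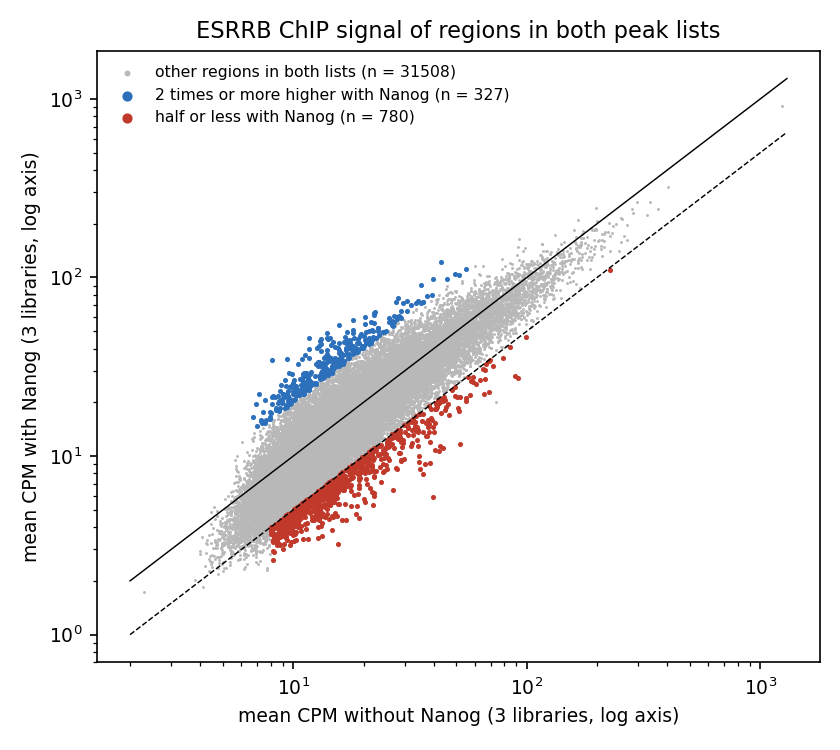
Mean ESRRB signal over 3 libraries in CPM with Nanog (vertical axis) against without Nanog (horizontal axis), both on log scales, with a point for each region in both peak lists. Red points are the 780 decreased regions, blue the 327 regions of the opposite rule and grey the rest, with a solid line at equal levels and a dashed line at a 2-fold decrease. The red points, with a median ratio of 0.446, lie mostly just under the dashed line.

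The largest proportional decrease was 91.0 kb from Ctso, the gene of the lysosomal protease cathepsin O, at chr3:81841230-81841886. Signal there was 5.83, 5.85 and 6.0 CPM with Nanog, against 28.9, 40.6 and 49.5 CPM without Nanog, a ratio of 0.149. The libraries with Nanog were almost level, whereas those without Nanog spread widely and were all at least 4.82 times the highest with Nanog. The region 11.6 kb from Zfp809, which silences endogenous retroviruses, is the one at the 1810064F22Rik start shown above. Its libraries lay between 3.14 and 3.32 CPM with Nanog, against a mean of 15.5 ± 3.9 CPM without Nanog (SD, n = 3), with the lowest at 13.1 CPM. A region inside Knop1, a nucleolar protein gene, had 14.4, 9.90 and 10.8 CPM with Nanog, against 56.7, 43.9 and 54.7 CPM without Nanog. In these 3 regions the lowest library without Nanog exceeded the highest with Nanog by 3.06 times or more.

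Plppr4, a membrane phospholipid phosphatase-related gene of neurons, had a region 16.3 kb away with 4.04, 3.94 and 5.49 CPM with Nanog, against 19.0, 22.5 and 15.8 CPM without Nanog. Elfn1, the gene of a synaptic membrane protein, had a region 36.5 kb away with 9.57, 4.77 and 9.32 CPM with Nanog, against 37.3, 23.1 and 47.2 CPM without Nanog. Here library B was the lowest in both lines. The same held at the region beside Rbbp8nl, whose upstream window is the Gm29943 sequence above, with 10.9, 6.68 and 9.96 CPM with Nanog, against 47.2, 31.1 and 37.5 CPM without Nanog. The other 4 regions among the 10 lowest ratios lay at Glrp1, Kat8, Tbl1x and Ppm1h, with ratios of 0.242 to 0.245. Kat8 encodes a histone acetyltransferase and Tbl1x a subunit of a nuclear receptor corepressor complex. Library B with Nanog was the lowest of its line at each of these 4.

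**Figure D2:**
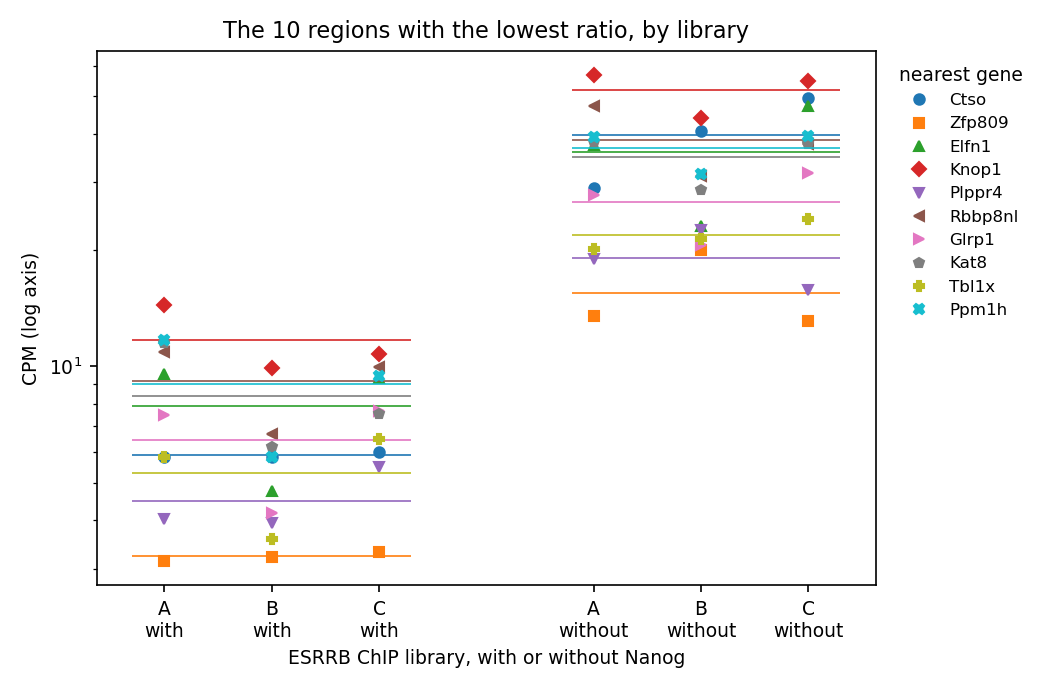
ESRRB signal in CPM (vertical log axis) in each of the 6 libraries (horizontal axis, with Nanog left of without Nanog) at the 10 decreased regions with the lowest ratio. Colours and symbols give the nearest protein-coding gene and lines the mean of a line's 3 libraries. For every gene the 3 points with Nanog lie below the 3 points without Nanog.

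The strongest of the decreased regions was at Gnas, an imprinted locus that encodes the stimulatory G-protein alpha subunit, at chr2:174286079-174290120. It is also the widest, at 4042 bp, and overlaps the antisense gene Gnasas1. Its signal was 124, 85.9 and 122 CPM with Nanog, against 229, 180 and 271 CPM without Nanog, with a ratio of 0.488. A region inside Calm2, a calmodulin gene, had 53.5, 35.5 and 49.9 CPM with Nanog, against 102, 68.9 and 126 CPM without Nanog. At both, library B was again the lowest of each line, and the lines were separated by 1.45 and 1.29 times.

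Of the 10 regions highest without Nanog, the one with the lowest ratio was inside Tex21, at 33.9, 19.6 and 28.1 CPM with Nanog, against 103, 66.9 and 105 CPM without Nanog. A second decreased region lay 2.32 kb away inside the same gene, with a mean of 7.15 CPM with Nanog against 23.8 CPM without Nanog. Rufy3, a gene of neuronal polarity, had 33.2, 19.4 and 31.7 CPM with Nanog, against 99.1, 83.1 and 85.1 CPM without Nanog. A region inside Kndc1, at chr7:139937094-139937750 and 6.43 kb from Utf1, was the most even of the 10 over libraries. It had 24.2, 21.7 and 22.7 CPM with Nanog, against 69.9, 66.9 and 70.1 CPM without Nanog, a log2 difference of -1.59 ± 0.050 (SE, n = 3 per line). Utf1 encodes a chromatin-associated protein of pluripotent cells. On the X chromosome, a region inside the long non-coding RNA gene Ftx of the X-inactivation centre, 46.3 kb from Zcchc13, had 33.9, 30.2 and 42.6 CPM with Nanog, against 84.1, 66.1 and 87.8 CPM without Nanog. The remaining 4 lay at Gm41291, at Mta3, a subunit gene of the NuRD complex, at Plpp3, a lipid phosphatase gene, and at Rbp7, a retinol-binding protein gene. Their ratios were between 0.448 and 0.499.

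The merged region was 362 bp wide in the median at the decreased regions, against 564 bp at the other regions. At the 327 regions of the opposite rule, at 8 CPM or more and at least 2 times higher with Nanog, the median width was 721 bp. The widest peak under a decreased region was 322 bp in the list with Nanog and 332 bp in the list without Nanog, in the median. Under the other regions these medians were 560 bp with Nanog and 336 bp without Nanog. The peak was shorter with Nanog than without Nanog at 446 decreased regions (57.2%) and at 3.03% of the other regions. At nearly all of the other regions the peak was thus no shorter with Nanog. Peak lists and counts come from the same libraries, so peak width is not independent of the rule, and libraries with Nanog held more reads. Within bands of equal level without Nanog, decreased regions had the smaller median width in all 5, from 288 bp against 393 bp at 8 to 12 CPM up to 664 bp against 1166 bp at 48 CPM or more. The bands do not separate width from the rule, because at equal level without Nanog the rule sets a lower level with Nanog.

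**Figure D3:**
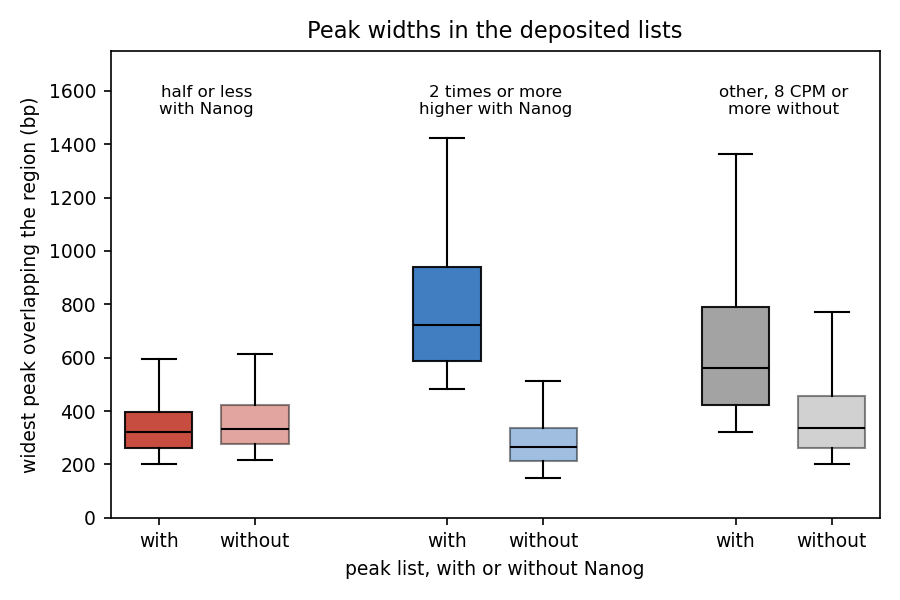
Width in bp of the widest listed peak under each region (vertical axis) in the list with Nanog and in the list without Nanog. Decreased regions are red, regions of the opposite rule blue and other regions at 8 CPM or more without Nanog grey. A listed peak may be only the stretch shared by the 3 libraries of a line. Boxes span the quartiles with a line at the median, and whiskers run from the 5th to the 95th percentile. The medians are 322, 721 and 560 bp with Nanog and 332, 267 and 336 bp without Nanog.

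Position along the genome was not part of the rule. Decreased regions were seldom near a gene end: 26 of 780 (3.33%, exact 95% Clopper-Pearson interval 2.19 to 4.85%) had their centre within 1 kb of an end of a protein-coding gene, against 13.5% of the other regions. Regions of the opposite rule had a low share too, at 4.59%. Within 5 kb the shares were 18.1%, 19.6% and 30.4% for decreased, opposite and other regions, and within 1 kb of an annotated protein-coding start they were 1.56% (12 of 769), 1.27% and 10.7%, with chromosome 18 left out for distances to starts. Inside a protein-coding gene lay 40.6% of the decreased, 49.2% of the opposite and 48.4% of the other regions. The median distance to the nearest protein-coding start was 44491 bp, 37858 bp and 28224 bp in the same order. More than 100 kb from any protein-coding gene lay 14.5% of the decreased regions, 10.4% of the opposite and 9.60% of the other regions. Both the decreased and the opposite set thus had lower shares near starts than the rest. Regions are not independent of each other, and the interval covers counting error only.

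The share at gene ends was lower for the decreased regions than for the other regions in each of the 5 bands of level. It was 1.26% against 10.1% at 8 to 12 CPM and 3.23%, or 1 of 31, against 16.9% at 48 CPM or more. The shares were closest at 12 to 16 CPM, with 5.05% (11 of 218) against 12.4%. The share of all regions of a band that met the rule was 3.07% at 8 to 12 CPM, 3.62% at 12 to 16, 2.42% at 16 to 24, 2.07% at 24 to 48 and 1.12% from 48 CPM. Strong regions therefore met it less often than weak ones, and weak regions also have the larger counting error.

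**Figure D4:**
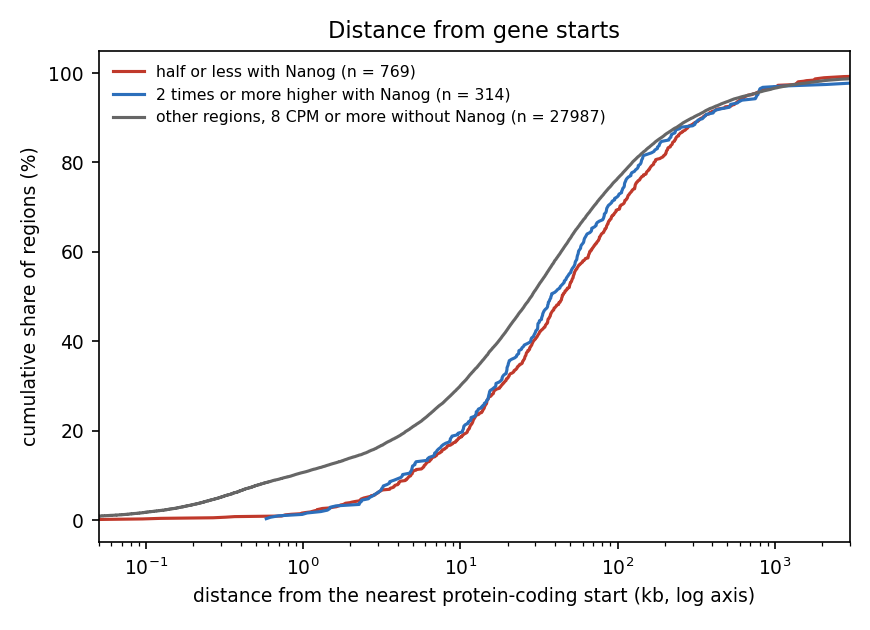
Cumulative share of regions in percent (vertical axis) by distance to the nearest annotated protein-coding start in kb (horizontal log axis), for decreased regions (red), regions of the opposite rule (blue) and other regions at 8 CPM or more without Nanog (grey). The grey curve lies above the others at short distance, with 10.7% within 1 kb, against 1.56% of the decreased and 1.27% of the opposite regions.

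Of the decreased regions within 1 kb of a protein-coding gene end, some of the strongest are given by gene. A region inside Fam163a had a mean of 24.4 ± 3.0 CPM with Nanog against 49.1 ± 7.3 CPM without Nanog (SD, n = 3 per line, as for the means below). Snapc3, the gene of a subunit of the small nuclear RNA activating complex, had 19.6 ± 1.8 CPM with Nanog against 40.9 ± 5.9 CPM without Nanog. These regions had ratios of 0.496 and 0.478. Armc9, a cilium gene, showed a lower ratio of 0.311, with 12.0 ± 2.9 CPM with Nanog against 38.6 ± 2.9 CPM without Nanog. Ccnb1ip1, a gene of meiotic recombination, had 10.1 ± 1.3 CPM with Nanog against 20.9 ± 0.33 CPM without Nanog. Kat8 and Rbbp8nl, described above, were also among the strongest of the 26.

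No other region of the count table lay within 10 kb of 293 of them (37.6%), against 24.2% of the opposite set and 25.2% of the other regions. The median number of neighbours within 50 kb was 5 at decreased regions and 7 in both comparison sets. In the strongest band, from 48 CPM without Nanog, it was 10 at decreased and 9 at other regions. The 1698 neighbours within 50 kb that were in both lists at 8 CPM or more and not themselves decreased had a median ratio of 0.890, against 0.923 at the other regions, which include them. A ratio under 1 was found at 67.3% of these neighbours and at 60.9% of the other regions. Regions of the rule were left out of the neighbours, so these values do not describe all regions near a decreased one. Of these neighbours 23.5% were called lower and 5.48% higher with Nanog, against 19.1% and 8.19% of the other regions (edgeR, adjusted p under 0.05). The background over the whole table was 9.78% lower and 9.42% higher, from 8306 and 7997 calls with TMM scaling. By column totals, the scaling of the rule, the balance turned, with 7170 lower and 8998 higher.

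Within 50 kb of another decreased region lay 80 of the 780 (10.3%), in 42 pairs. The same count was not made for other sets of regions, so it is not read as grouping. The closest pair was at Hunk, a kinase gene, 0.406 kb apart, with means of 3.99 and 3.19 CPM with Nanog against 10.6 and 8.78 CPM without Nanog. A pair 0.677 kb apart had Eomes, a T-box factor of mesendoderm and trophoblast, as its nearest gene. Its means were 9.53 and 7.36 CPM with Nanog against 19.2 and 15.3 CPM without Nanog. Neither region of that pair lay within 50 kb of a gene of the trophoblast or mesendoderm list. The nearest protein-coding genes of the 780 regions were 720 in number. Of these, 665 were nearest to 1 decreased region, 51 to 2 regions and 4 to 3 or more, which were Fgfr2 with 4, and Auts2, Pld5 and Tbc1d5 with 3 each. Such counts are not shares: many more regions of both lists were nearest to Auts2 than to Pld5 or Tbc1d5. All 3 at Tbc1d5 met the rule without each library in turn, as did 2 at Pld5, 1 at Auts2 and 1 at Fgfr2. Without library C of the line without Nanog, 1 of the 3 at Auts2 was left, and at Fgfr2 leaving out any library left 3 or 4. Assignment is by distance alone and shows no action on the gene, and the farthest of these, assigned to Auts2, lay 530 kb away.

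Decrease and increase could meet at the same gene. Of the nearest genes, 24 were nearest both to a decreased region and to a region of the opposite rule, which is 3.33% of the 720 genes and 7.72% of the 311 genes of the opposite set. This share was not computed for genes nearest to other regions, and some of the 24, such as Pde4d and Klf6, were nearest to many regions. Within 50 kb of a region of the opposite rule lay 9 decreased regions (1.15%) and 2.80% of the other regions outside that set. Pde4d, a cAMP phosphodiesterase gene, held a decreased region with 4.19, 5.25 and 5.23 CPM with Nanog, against 9.87, 14.4 and 12.7 CPM without Nanog. Far off in the same gene, a region of the opposite rule had a mean of 19.4 CPM with Nanog against 9.26 CPM without Nanog. Hk2, which encodes a hexokinase, had a decreased region 2.93 kb outside the gene with 6.13, 4.65 and 6.51 CPM with Nanog, against 8.05, 16.9 and 9.63 CPM without Nanog, with library B the highest without Nanog. An increased region 17040 bp outside its other end had 24.1 CPM with Nanog against 11.3 CPM without Nanog.

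Gene groups were read as the share of regions within 50 kb of a listed gene, in both lists and at 8 CPM or more without Nanog, that were decreased. The lists were written with earlier results of these data in view, and some hold genes that those results had named, among them Knop1, Bicc1 and Zfp809. Over all 23 lists the share was 45 of 1833 (2.45%), against 2.64% over all such regions. The primitive endoderm list, markers of the extraembryonic lineage that NANOG holds back, had the highest share, 9 of 96 (9.38%), and a median ratio of 0.799 over its 96 regions. Inside its genes the share was 3 of 34 (8.82%) and the median ratio 1.04, so the median lay on the other side of 1. Leaving out a library left 7 to 9 of the 9 regions. Without each library in turn, 3 met the rule, 1 each within 50 kb of Fgfr2, Amn and Cubn. An excess of lower calls at this list was already known when it was chosen, so its share is not independent of that. RNA-binding genes followed with 6 of 91 (6.59%), then the 2-cell-like list with 2 of 39 (5.13%), WNT genes with 4 of 84 (4.76%) and formative and primed epiblast genes with 3 of 77 (3.90%). Naive pluripotency genes had 1 of 114 (0.877%), with a median ratio of 1.10.

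Among primitive endoderm genes, Fgfr2, an FGF receptor of that lineage, accounted for 4 of the 9 regions. The other 5 were counted for Dkk1, a secreted WNT inhibitor, Sparc, a matrix protein, Hnf4a, a nuclear receptor of visceral endoderm, and Amn and Cubn. Amn and Cubn encode the partners of an endocytic receptor of the visceral endoderm. The regions counted for Amn, Sparc and Cubn were nearest to other genes, Traf3, Atox1 and Rsu1 in that order, and the last lay inside Rsu1. At Dkk1, 31.1 kb from the gene, signal was 7.62, 11.5 and 11.4 CPM with Nanog, against 15.7, 30.3 and 15.6 CPM without Nanog. Library B without Nanog stood apart there. The region 3.05 kb from Amn had 5.68, 9.07 and 9.57 CPM with Nanog, against 21.2, 19.2 and 17.3 CPM without Nanog. Hnf4a held a region inside the gene with a mean of 7.53 ± 0.34 CPM with Nanog against 15.7 ± 1.8 CPM without Nanog. The region 36.3 kb from Sparc had 7.20 ± 0.96 CPM with Nanog against 16.1 ± 3.7 CPM without Nanog. The region 38.5 kb from Cubn was weak, with 3.32 ± 1.1 CPM with Nanog against 9.82 ± 2.0 CPM without Nanog.

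At Fgfr2 the decrease could be followed region by region. The gene was nearest to 19 regions of both lists, of which 15 had a ratio under 1, 10 were called lower and 0 higher (edgeR, adjusted p under 0.05). The rule itself brings about 4 of these 10 calls. Among the other regions in both lists at 8 CPM or more, 60.9% had a ratio under 1, 19.1% were called lower and 8.19% higher. Those leave out decreased regions and regions under 8 CPM without Nanog. The 19 hold both kinds, among them regions at 6.21 and 5.87 CPM without Nanog that were called lower. Fgfr2 was also taken up for having the most decreased regions, so its counts and these shares are not on like terms. The 4 decreased regions lay 11.6, 71.6, 123 and 153 kb downstream of the start on chromosome 7. The first had 9.72, 9.30 and 9.83 CPM with Nanog, against 24.9, 22.2 and 16.2 CPM without Nanog. The region 123 kb downstream had 7.03, 5.01 and 6.25 CPM with Nanog, against 15.4, 16.1 and 11.7 CPM without Nanog. Both were clearly weaker than the 2 strongest regions of the gene, 13.4 and 14.6 kb downstream. Those had 53.3 ± 7.6 and 62.5 ± 3.6 CPM with Nanog, against 54.8 ± 5.5 and 64.9 ± 3.8 CPM without Nanog, so the signal there was level within its spread. A region 125 kb downstream just missed the rule, with 13.2 ± 1.4 CPM with Nanog against 26.4 ± 1.8 CPM without Nanog.

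**Figure D5:**
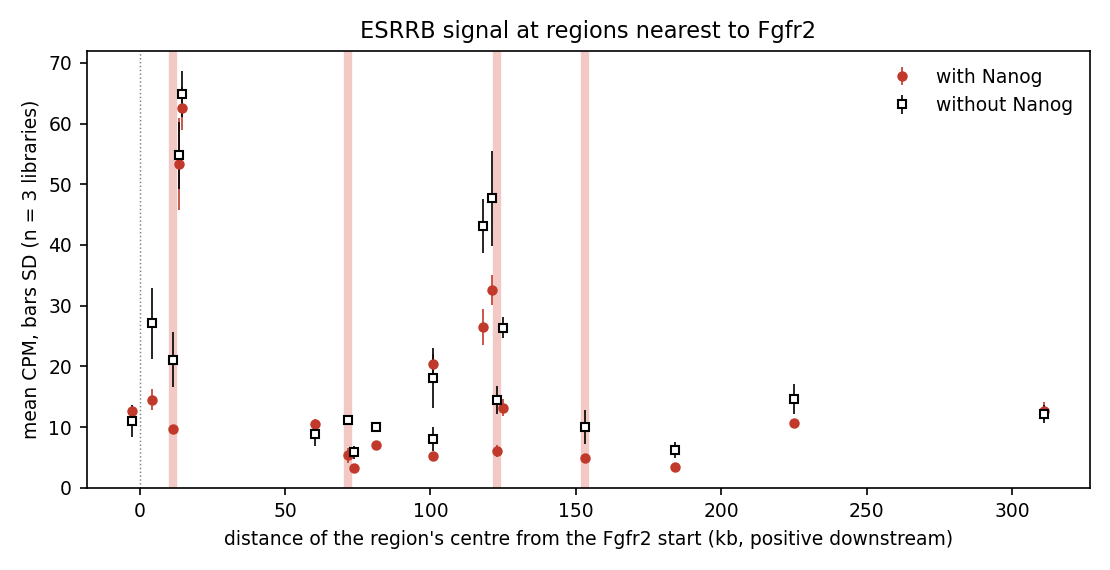
Mean ESRRB signal in CPM (vertical axis, bars SD over 3 libraries) with Nanog (filled red) and without Nanog (open) at the regions in both lists nearest to Fgfr2, by distance in kb from its start, positive downstream. Red bands mark the 4 decreased regions. The tallest regions, 13.4 and 14.6 kb downstream, are level between the lines.

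Among WNT genes, Lrp6, a WNT co-receptor, had a decreased region at 3.17 kb and a second 30.8 kb away inside Bcl2l14. The nearer had 11.2, 11.5 and 11.5 CPM with Nanog, against 34.4, 32.2 and 35.8 CPM without Nanog, so each line was nearly even over its libraries. The second had 19.7, 19.4 and 20.9 CPM with Nanog, against 44.6, 34.7 and 48.1 CPM without Nanog. Tle1, a WNT corepressor, had a region with 7.34 ± 1.8 CPM with Nanog against 17.2 ± 2.6 CPM without Nanog. Lef1, a transcription factor that acts with beta-catenin and also stands in the primed epiblast list, held one with 3.61 ± 0.81 CPM with Nanog against 8.79 ± 1.9 CPM without Nanog. Dnmt3b, a DNA methyltransferase of the primed epiblast, had a region at 1.09 kb with 3.75 ± 0.059 CPM with Nanog against 8.90 ± 2.2 CPM without Nanog. A second, 23.7 kb away inside Commd7, had 5.18 ± 1.1 CPM with Nanog against 13.1 ± 2.9 CPM without Nanog. The regions inside Lef1 and 1.09 kb from Dnmt3b were among the weaker ones, so few reads stand behind each value there. The one inside Commd7 was less weak, though under the median of 14.6 CPM without Nanog over all decreased regions.

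Of the RNA-binding list, Rbfox1, a splicing factor gene, had 14.4, 6.80 and 13.1 CPM with Nanog, against 39.9, 38.9 and 49.3 CPM without Nanog. Pum2, a translational repressor, had 11.1, 8.35 and 10.8 CPM with Nanog, against 19.7, 26.4 and 19.1 CPM without Nanog. Knop1, Igf2bp2, Eif4g1 and Bicc1 made up the rest of its 6 regions, with ratios of 0.226 to 0.477. The region counted for Eif4g1 lay 30.5 kb away and was nearest to Thpo. Glycolysis genes had 3 of 124 (2.42%), close to the share over all regions. Eno1, the gene of enolase, had a region at 3.13 kb with 10.0, 6.20 and 9.57 CPM with Nanog, against 29.6, 21.4 and 32.0 CPM without Nanog. Pfkl, a phosphofructokinase gene, had one with 21.4 ± 2.6 CPM with Nanog against 44.1 ± 5.6 CPM without Nanog, and the third was that at Hk2.

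FGF and ERK genes had 4 of 136 (2.94%), 3 of them at Grb2, Spred1 and Fgfr4, with ratios of 0.379, 0.411 and 0.454. Cell adhesion genes had 3 of 107 (2.80%). Of these, Epcam, an epithelial adhesion molecule of embryonic stem cells, had 15.9 ± 2.4 CPM with Nanog against 32.2 ± 5.7 CPM without Nanog. Of the nuclear receptor list, Nr2f2, an orphan receptor, was the only gene with a decreased region, 1 of 124 regions. It had 5.38, 4.77 and 3.7 CPM with Nanog, against 11.7, 16.7 and 11.4 CPM without Nanog. Hnf4a, also a nuclear receptor gene with a decreased region, was counted in the primitive endoderm list and not in this one. The single region of the naive list lay 28.6 kb from Fgf4 and nearest to Fgf3, with 5.83, 4.77 and 5.36 CPM with Nanog, against 15.7, 8.33 and 19.1 CPM without Nanog. The general pluripotency list had 2 of 88 (2.27%), among them the region at Utf1.

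No decreased region lay within 50 kb of a gene of 7 lists, which hold few regions each beside a share of 2.64% over all regions. These were trophoblast with 42 regions at 8 CPM or more, mesendoderm with 20, neuroectoderm with 25, LIF and STAT3 with 58, ubiquitin with 63, housekeeping with 65 and fibroblast with 25. Within 100 kb, trophoblast had 3 of 79, ubiquitin 2 of 97, LIF and STAT3 1 of 90 and housekeeping 1 of 102, against 2.42% over all lists, and the other 3 lists still had 0. The lists not yet named had between 0.763% and 2.74%, with 2 of 73 regions at ion channels as the highest. By chromosome, the share of regions at 8 CPM or more that were decreased ran from 1.39% on chromosome 18 to 3.79% on chromosome 1, with 3.33% on X and 0 of 4 on Y.

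Spread between libraries was larger at the decreased regions than at the other regions. The coefficient of variation over 3 libraries had a median of 16.1% with Nanog and 18.3% without Nanog at the decreased regions, against 10.2% with Nanog and 15.0% without Nanog at the other regions. With Nanog, the rule sets a lower level at the decreased regions, a median of 6.40 CPM against 16.7 CPM. Weak regions have the larger counting error, so the 2 values with Nanog are not on like terms. Without Nanog, the decreased regions had the larger median in every band of level. It was 18.3% against 17.2% at 12 to 16 CPM, the closest, and 15.5% against 10.1% at 48 CPM or more. The rule used these same levels, so neither this spread nor the order of libraries that follows is independent of it, even within a band. Library B was the lowest with Nanog at 57.7% of the decreased regions and at 39.1% of the other regions. Library C was the highest without Nanog at 39.6% of them and at 32.9% of the other regions. The part of these libraries in the choice of regions was measured by making the choice without each library in turn. This gave 762 to 1022 regions, and the library left out lay on the same side of all libraries of the other line at 93.4% to 98.7% of them. Each choice still used all the other libraries of both lines, so this share is partly set by the rule. Of all 29548 regions in both lists at 8 CPM or more without Nanog, 8175 had each library without Nanog above each library with Nanog. A difference of 2 times or more held in the left-out library less often, at 34.4% of the regions when library B without Nanog was left out and up to 67.6% when library B with Nanog was. Of the 780 regions, 381 (48.8%) met the rule without each library in turn.

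The limits of the rule fell within a dense run of regions. Just inside the fold limit were regions at Rnf43, with 6.58 CPM with Nanog against 13.2 CPM without Nanog, at Psmd13, with 5.20 against 10.4 CPM, and at Sp3, with 14.9 against 29.8 CPM in the same order. Just outside were regions at Smc2, with 8.76 CPM with Nanog against 17.5 CPM without Nanog, at Pdgfa, with 4.02 against 8.04 CPM, and at Bcl10, with 6.73 against 13.5 CPM. Regions just above the level limit lay at Apoc2, Hes1 and Gfra3, with 8.02 to 8.04 CPM without Nanog. Just below it were regions at Trabd2b, Txlnb and St3gal3, with 7.98 to 7.99 CPM without Nanog. A further 16 regions met the fold and the level but had libraries that overlapped between the lines.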

How the data were processed

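ESRRB ChIP libraries, 3 per line, were grouped by their titles. The table of read counts was deposited by the authors and holds whole-number counts per region without normalisation. Its regions are the merged deposited peak lists, whose entries carry a chromosome, start and end. The mm10 build and the tools MACS2, Bowtie2, bedtools 2.26.0, SAMtools 1.4.1, deepTools and bcl2fastq 2.19.1 are listed in the submitters' processing notes. These sources state neither their settings nor how reads were counted or deduplicated. The 6 input libraries were not used here. Column letters A to C are not in the labels, so columns were assigned to lines only.

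CPM was computed from column totals in Python 3.11.15 with pandas 2.3.3. Values are relative to the other regions, so a shift common to all regions is invisible. Regions were tested with edgeR 4.0.16 in R 4.3.3 (filterByExpr, which removed 1309 regions, TMM, glmQLFit and glmQLFTest, Benjamini-Hochberg), with the line alone as design, and the script was tested on simulated data. Libraries of a line were not duplicates of each other (chi-square per degree of freedom 1.33 to 2.51). Genes and promoter windows are from RefSeq for GRCm38.p6, and coordinates are 1-based.

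The chosen regions and the gene lists were fixed with earlier results of these data known. Regions were named by rule: the 10 lowest ratios, the 10 highest levels without Nanog, the 8 strongest at gene ends, up to 3 per list, genes nearest to 3 or more, and 3 on each side of each limit. Names outside it (pairs, further list genes, promoter examples, neighbouring regions) were chosen after their values were seen. Alternatives were other scalings, DESeq2 1.42.0, folds, levels, filters, distances and libraries left out. Thinning the libraries to equal totals, the promoter motifs, the distance to starts, the counts by gene without each library and the share near increased regions were added after seeing the data. Motifs in whole regions were planned and not analysed here. Some genes that the naming rule takes are not reported here.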

Additional observations from a re-analysis of the deposited data

How the results depend on the processing

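The count of 780 regions became 892 with TMM scaling, 940 with DESeq2 size factors and 984 with libraries thinned to equal totals, of which 585 were among the 780. TMM and DESeq2 scaling shift the median ratio by factors of 0.979 and 0.972, and all 780 regions met the rule under both. Both shifts lower the ratio, so this was largely set beforehand and does not test the choice. Other limits moved the count by construction: 3927 at 1.5-fold, 58 at 3-fold and 323 at 16 CPM. It was 906 at 4 CPM, 796 with overlapping libraries allowed, 930 with no peak list required, 759 with at least 50% of a region covered by peaks of each list, 763 on autosomes, and 762 to 1022 without each library. Regions called lower over the table numbered 5503 at a mean count of 50 or more, 5437 with DESeq2 and 4780 to 8971 without each library. Regions called higher numbered 4978, 4786 and 4988 to 9288. Without library B with Nanog 4780 were lower and 4988 higher, and without library A with Nanog 5045 were lower. Of the 780, 424 were tested and called at a mean count of 50 or more, and 769 to 779 without each library.

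Column letters are in no label and were not taken as pairs. With a replicate block by letter, 10825 regions were called lower and 10095 higher, and all 780 chosen regions were called lower.

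Within 1 kb of an end of any gene lay 8.59% of the 780, within 5 kb of a protein-coding gene end 18.1%, and within 1 kb of a start 1.56% of the 769 outside chromosome 18. Regions at listed genes numbered 14 inside the genes and 64 within 100 kb, against 45 within 50 kb, and those at primitive endoderm genes 3 and 11, against 9. Motifs in whole regions and in their central part were not run. Depth limits single values most without Nanog, where library A has 21.9 reads at 8 CPM.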
